A study of Rattus norvegicus with 30 samples.

Results

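Tubulin isoforms were followed in the hearts of male rats of the Crl:WI(Han) strain (Wistar Han), each given isoproterenol hydrochloride once, a drug that switches on beta-adrenergic receptors, or else vehicle. Isoproterenol hearts were sampled at 1, 3, 24 and 72 h with 5, 4, 4 and 5 arrays, and vehicle hearts at the same times with 3 arrays each, which makes 30 arrays. Heart tissue from necropsy was kept in RNAlater, and its total RNA was labelled and hybridised to Affymetrix RAT230_2 arrays, on which each probe set gives 1 intensity. The labels put the last sampling at 72 h and the design text puts it earlier, and the labels were followed. The sources used here give no age. The arrays are titled biological replicates, and nothing in the labels says that each came from its own animal, so the tests measure the spread between these arrays. The array numbers run from 33 to 62 for isoproterenol hearts and from 4 to 21 for vehicle hearts, so treatment and the order of the arrays cannot be told apart.

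The genes are Tubb6, Tubb2a, Tubb2b, Tubb3, Tubb5, Tuba1a, Tuba1b, Tuba1c, Tuba4a and Tuba8, and every probe set annotated to 1 of them was taken, 10 of 31099 probe sets in all. These 10 probe sets cover 7 genes, of 12451 genes with a tested probe set in the series. Tuba1a, Tuba1b and Tuba1c have no probe set of their own here and share 1 further probe set, 1367579_a_at, which reads the 3 together. The genes were chosen with the difference between isoproterenol and vehicle hearts known, so those differences are given as a description. Whether a difference passed limma's threshold over all probe sets is stated beside the share of all probe sets that did, and nothing is read from it.

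Microtubules are hollow tubes built from dimers of 1 alpha-tubulin and 1 beta-tubulin. Mammals carry several genes for each, whose proteins are alike in the core and differ mostly in the short C-terminal tail that motors, binding proteins and modifying enzymes recognise. In cardiomyocytes the microtubule network carries cargo and bears load during contraction, and a denser or more detyrosinated network is known from hypertrophied and failing hearts. Newly made tubulin is folded by the chaperonin CCT with prefoldin, and cells hold the tubulin mRNAs in check according to how much free tubulin dimer they have.

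The upstream sequences of 4 genes are shown first: Tubb6, which had the largest difference at 1, 3 and 24 h, Tubb2b, which had it at 72 h, Tuba8, which was lower, and Tubb2a, picked for its cAMP response element after the letters had been searched. All 10 genes matched an entry of RefSeq's GRCr8 assembly by symbol, each with 250 bases before and 50 bases after the annotated start. The windows lie at chr18:63213037-63213336 for Tubb6, chr17:31001936-31002235 for Tubb2a, chr17:30952836-30953135 for Tubb2b and chr4:156112022-156112321 for Tuba8, all on the plus strand. Capitals mark matches, on either strand, to the cAMP response element TGACGTCA, the TATA box TATAAA, the CCAAT box CCAAT and the AP-1 site TGANTCA.
Tubb6: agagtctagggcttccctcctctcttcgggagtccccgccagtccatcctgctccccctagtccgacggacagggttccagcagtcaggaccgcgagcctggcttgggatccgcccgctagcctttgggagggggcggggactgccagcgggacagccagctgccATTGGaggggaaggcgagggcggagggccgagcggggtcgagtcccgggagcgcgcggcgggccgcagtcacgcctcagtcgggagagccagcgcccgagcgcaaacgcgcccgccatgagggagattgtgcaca
Tubb2a: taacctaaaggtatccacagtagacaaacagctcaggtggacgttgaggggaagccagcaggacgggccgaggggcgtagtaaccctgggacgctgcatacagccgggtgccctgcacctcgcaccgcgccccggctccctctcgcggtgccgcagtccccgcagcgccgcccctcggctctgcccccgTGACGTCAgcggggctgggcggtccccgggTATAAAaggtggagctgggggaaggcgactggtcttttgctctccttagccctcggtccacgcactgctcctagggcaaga
Tubb2b: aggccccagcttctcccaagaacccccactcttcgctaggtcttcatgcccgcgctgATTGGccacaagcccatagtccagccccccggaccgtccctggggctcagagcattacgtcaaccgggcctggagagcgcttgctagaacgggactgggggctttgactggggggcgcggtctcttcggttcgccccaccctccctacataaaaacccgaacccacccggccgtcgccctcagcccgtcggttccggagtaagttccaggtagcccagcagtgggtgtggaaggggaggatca
Tuba8: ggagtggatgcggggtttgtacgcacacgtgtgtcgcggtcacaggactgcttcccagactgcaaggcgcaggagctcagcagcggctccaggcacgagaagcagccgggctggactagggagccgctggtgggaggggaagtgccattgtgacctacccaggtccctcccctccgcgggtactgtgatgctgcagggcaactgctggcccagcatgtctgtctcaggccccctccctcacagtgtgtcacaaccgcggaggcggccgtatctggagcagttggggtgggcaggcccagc
Tubb2a was the 1 gene of 10 with the full cAMP response element, which starts 61 bases before the gene's start, and also the 1 gene with a TATAAA, 31 bases before the start. Of 33469 windows of that length, 1.83% hold the full element and 14.2% hold TATAAA. The Tubb6 window holds a CCAAT box read on the minus strand at -85, and 7 of the 10 windows hold at least 1 CCAAT, against 37.5% of all windows. Further letters were searched without capitals. The GC box GGGCGG was found in 8 of 10 windows, Tubb6 with 3 matches among them, against 33.1% of all windows. The shorter form TGACG, which lies inside the full element, was found in 4 of 10, against 21.2% of all windows. No window of the 10 holds TGANTCA, which 7.33% of all windows hold, nor a CArG box, which 1.64% hold. The Tuba8 window holds none of the letters searched. These are matches of letters in 1 window per gene, and nothing about binding was measured.

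Across arrays the median deposited intensity ran from 21.2 to 70.3, a range of 3.32-fold, and arrays were therefore brought to 1 common distribution (quantile normalization). Levels are given as normalized log2(intensity + 16), and differences as isoproterenol minus vehicle on that log2 scale, with the standard error after ±, from limma fitted to all 30 arrays. A probe set was tested if it reached an intensity of 23 on at least 3 arrays, which 24292 did, and was called where limma's adjusted p was below 0.05. The correlation between arrays of 1 group lay between 0.9428 and 0.9853, and no arrays held identical values. Levels of different probe sets are not comparable with each other, so only differences are set side by side.

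Tubb6, a beta-tubulin made at low level in most tissues, had the largest difference among the 7 genes at 1, 3 and 24 h. At 1 h its level was 8.62, 8.25, 8.31, 8.41 and 8.20 in isoproterenol hearts, against 6.76, 6.81 and 7.10 in vehicle hearts. At 3 h it was 8.88, 9.99, 9.40 and 10.10 in isoproterenol hearts, against 6.51, 6.65 and 7.25 in vehicle hearts. Every isoproterenol heart lay above every vehicle heart at both times. At 24 h the level was 10.27, 10.52, 8.38 and 10.12 in isoproterenol hearts, against 6.44, 6.85 and 6.88 in vehicle hearts. At 72 h it was 7.01, 8.49, 9.73, 8.16 and 8.35 in isoproterenol hearts, against 6.28, 6.85 and 6.28 in vehicle hearts. The groups were again apart, although the lowest isoproterenol heart was only a little above the highest vehicle heart. The differences were 1.47 ± 0.39 at 1 h, 2.79 ± 0.41 at 3 h, 3.10 ± 0.41 at 24 h and 1.88 ± 0.39 at 72 h, which are ratios of 2.77, 6.92, 8.57 and 3.67. Among all probe sets tested, 158 had a larger positive difference at 1 h, 59 at 3 h, 13 at 24 h and 209 at 72 h. In the order of group means, the 24 h isoproterenol group came first, then 3 h, 1 h and 72 h, then the vehicle groups. The ranges of the 24 h and 3 h isoproterenol groups overlapped, and so did those of the 1 h and 72 h isoproterenol groups. The 3 h and 1 h isoproterenol groups did not overlap each other, but the 24 h and 72 h isoproterenol groups each overlapped both. The change in the Tubb6 difference from 1 h to 3 h was not called.

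The second Tubb6 probe set, 1394144_at, stayed dim. It reached the intensity limit on 2 of 30 arrays and was not tested, and its level averaged 4.69, 4.58, 4.59 and 4.45 in isoproterenol hearts at 1, 3, 24 and 72 h, against 4.61, 4.60, 4.44 and 4.22 in vehicle hearts. The account of Tubb6 therefore rests on 1 probe set, 1376100_at, which was above the limit on all 30 arrays.

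**Figure D1:**
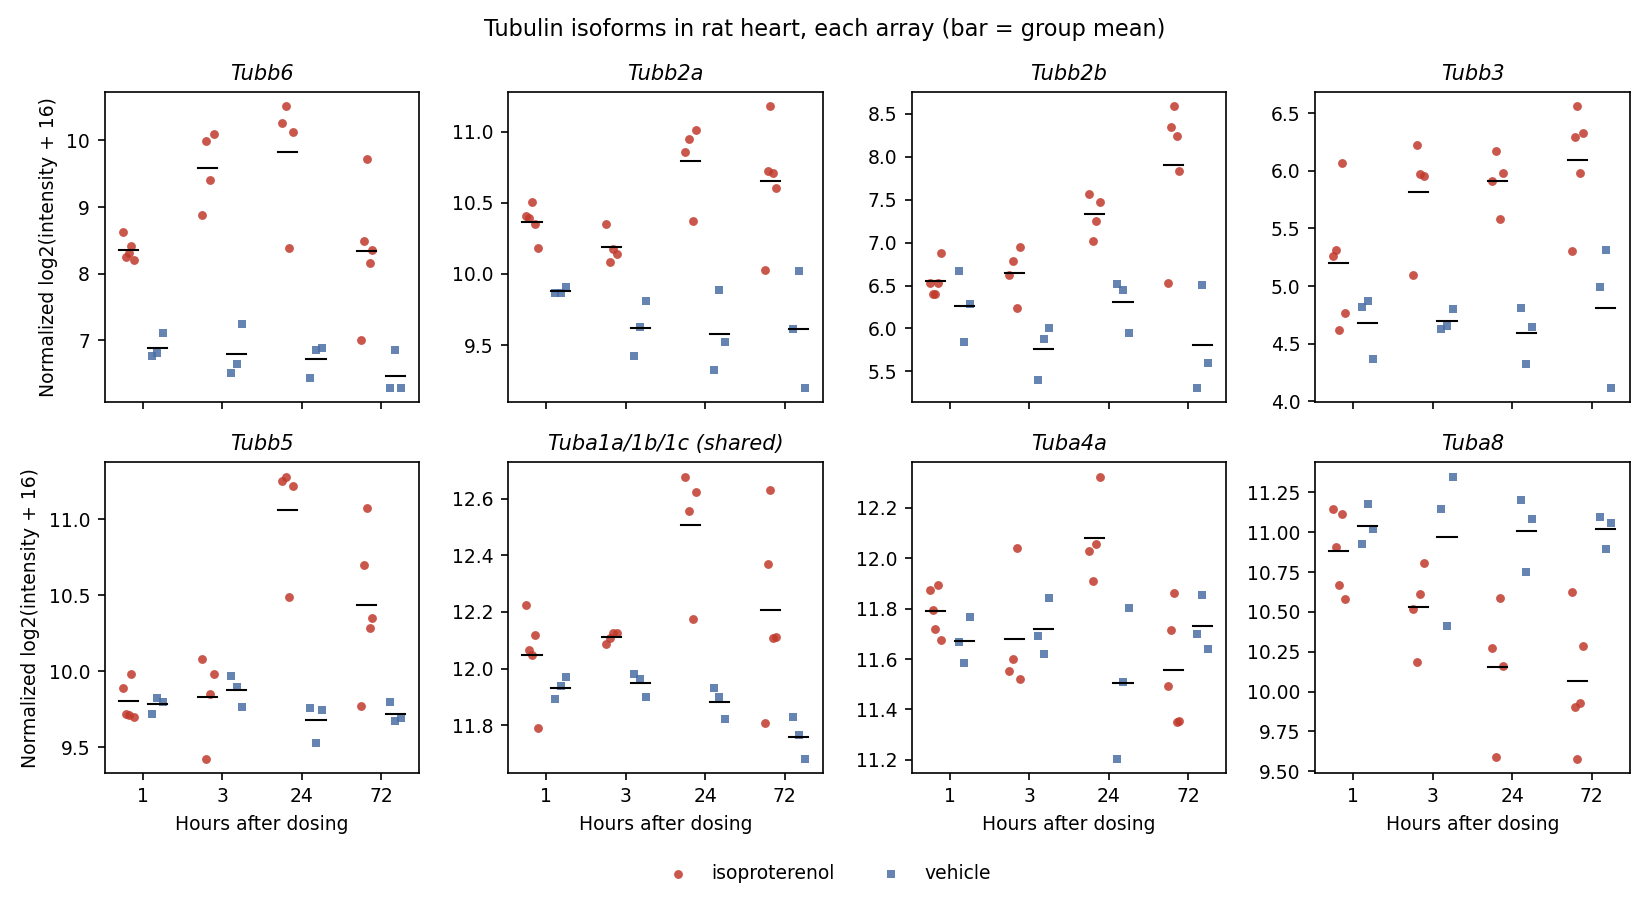
Normalized log2(intensity + 16) of the brightest probe set of each tubulin gene (vertical axis, a scale per panel) by hours after dosing, with 1 point per array for isoproterenol (circles) and vehicle (squares) and a bar at each group mean. Isoproterenol hearts stand above vehicle hearts for Tubb6 and Tubb2a at all 4 times (Tubb2a barely at 72 h), and below them for Tuba8 at 24 and 72 h.

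Tubb2a, a beta-tubulin abundant in brain and present in many tissues, also separated the groups at each time, though barely at 72 h. There the lowest isoproterenol heart was at 10.03 and the highest vehicle heart at 10.02. At 1 h its level was 10.40, 10.40, 10.51, 10.35 and 10.18 in isoproterenol hearts, against 9.86, 9.87 and 9.91 in vehicle hearts. At 24 h it was 10.86, 10.95, 10.37 and 11.01 in isoproterenol hearts, against 9.33, 9.89 and 9.52 in vehicle hearts. The differences of 0.49 ± 0.18 at 1 h and 0.57 ± 0.19 at 3 h were not called, while those of 1.22 ± 0.19 at 24 h and 1.04 ± 0.18 at 72 h were.

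Tubb2b, a close relative of Tubb2a best known from migrating neurons, had its largest difference last. At 72 h its level was 6.52, 8.34, 8.59, 8.24 and 7.83 in isoproterenol hearts, against 5.30, 6.51 and 5.60 in vehicle hearts. All isoproterenol hearts were higher, the lowest of them by a narrow margin. The difference was 0.29 ± 0.31 at 1 h, with overlapping groups, 0.88 ± 0.32 at 3 h and 1.02 ± 0.32 at 24 h, and it reached 2.10 ± 0.31 at 72 h, above the 1.88 of Tubb6 at that time. In the order of its group means the 24 h isoproterenol group (7.02 to 7.57) did not overlap the 3 h isoproterenol group (6.24 to 6.95), which came next. The 72 h isoproterenol group, first in that order, overlapped both.

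Tubb3, the class III beta-tubulin used as a marker of neurons, was dim. All 12 vehicle hearts lay below the intensity limit on its brighter probe set, 1371618_s_at, so the size of its difference is uncertain. This probe set passed the filter, and could be called, only through isoproterenol hearts. At 24 h its level was 5.91, 6.17, 5.58 and 5.98 in isoproterenol hearts, against 4.81, 4.32 and 4.64 in vehicle hearts. These groups were apart, as they were at 3 h, and at 1 and 72 h they overlapped. The differences were 0.52 ± 0.30, 1.12 ± 0.32, 1.32 ± 0.32 and 1.29 ± 0.30 at 1, 3, 24 and 72 h. The other Tubb3 probe set, 1369901_at, reached the limit on 4 arrays and gave differences of -0.27 ± 0.28, -0.01 ± 0.29, -0.03 ± 0.29 and 0.08 ± 0.28, so the 2 probe sets of this gene disagree. With their mean in place of the brighter one, Tubb3 at 24 h was 0.64 and was not called. Of the 7 nerve and Schwann cell markers tested, 0, 1, 2 and 1 rose at 1, 3, 24 and 72 h by limma's call and none fell, and the median difference of the list was -0.02, 0.28, 0.09 and 0.36. The calls were Dbh at 3 and 24 h and Uchl1 at 24 and 72 h, while Prph, S100b and Th were below 0 at 24 h and S100b, Sox10 and Th at 72 h. The share of all probe sets called higher was 1.83%, 6.1%, 7.34% and 9.37% at 1, 3, 24 and 72 h. The summed intensity of the list at 24 h was 289 to 340 in isoproterenol hearts, against 206 to 244 in vehicle hearts. The part of nerve RNA in the Tubb3 values was not tested.

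Tubb5, a beta-tubulin of most cells, had differences near 0 at 1 and 3 h and was higher at 24 and 72 h, and both of its probe sets showed this. On 1387892_at the level at 3 h was 10.08, 9.42, 9.85 and 9.98 in isoproterenol hearts, against 9.97, 9.90 and 9.76 in vehicle hearts. At 24 h it was 11.25, 11.28, 10.48 and 11.22 in isoproterenol hearts, against 9.76, 9.53 and 9.75 in vehicle hearts. The groups overlapped at 3 h and were apart at 24 h. The differences were 0.02 ± 0.19, -0.04 ± 0.20, 1.38 ± 0.20 and 0.71 ± 0.19 at 1, 3, 24 and 72 h, and on 1370290_at they were -0.06 ± 0.22, -0.06 ± 0.23, 1.03 ± 0.23 and 0.92 ± 0.22. On both probe sets the groups overlapped at 72 h, where replicate 1 of the isoproterenol hearts was the lowest of its group and no higher than the highest vehicle heart.

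The probe set shared by Tuba1a, Tuba1b and Tuba1c, the alpha-tubulins made in most cells, was called higher at 24 and 72 h. At 3 h every isoproterenol heart was above every vehicle heart by a small margin, and the difference was not called. At 24 h its level was 12.68, 12.56, 12.18 and 12.62 in isoproterenol hearts, against 11.93, 11.90 and 11.82 in vehicle hearts, with every isoproterenol heart higher. The differences were 0.12 ± 0.13, 0.16 ± 0.13, 0.63 ± 0.13 and 0.45 ± 0.13 at 1, 3, 24 and 72 h. Which of the 3 genes carried them cannot be told from this probe set.

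Tuba4a, an alpha-tubulin whose gene encodes no C-terminal tyrosine, was called higher at 24 h alone. At 24 h its level was 12.03, 11.91, 12.06 and 12.32 in isoproterenol hearts, against 11.20, 11.51 and 11.80 in vehicle hearts. At 72 h it was 11.49, 11.72, 11.86, 11.35 and 11.35 in isoproterenol hearts, against 11.70, 11.85 and 11.64 in vehicle hearts. The groups were apart at 24 h and overlapped at 72 h. The differences were 0.12 ± 0.13, -0.04 ± 0.14, 0.57 ± 0.14 and -0.18 ± 0.13 at 1, 3, 24 and 72 h, and of these the 24 h difference was called.

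Tuba8, an alpha-tubulin found chiefly in heart, skeletal muscle and testis, was the 1 isoform that was lower. At 24 h its level was 10.27, 9.59, 10.59 and 10.16 in isoproterenol hearts, against 11.20, 10.75 and 11.08 in vehicle hearts. At 72 h it was 10.62, 9.91, 9.58, 9.93 and 10.28 in isoproterenol hearts, against 11.10, 10.90 and 11.06 in vehicle hearts. All isoproterenol hearts lay below all vehicle hearts at both times. The differences were -0.16 ± 0.21, -0.44 ± 0.22, -0.86 ± 0.22 and -0.95 ± 0.21 at 1, 3, 24 and 72 h. Without any normalization between arrays, where the median of all probe sets was itself 0.47 at 24 h and 0.36 at 72 h, the Tuba8 differences were -0.29 and -0.48 and were not called.

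Counted over the 7 genes by their brightest probe set, 1 was called higher at 1 h, 2 at 3 h, 6 at 24 h and 5 at 72 h, where 1.83%, 6.1%, 7.34% and 9.37% of all probe sets tested were called higher. None was called lower at 1 or 3 h, and 1 was called lower at 24 h and at 72 h, where 0.815%, 5.28%, 5.71% and 8.46% of all probe sets were. Isoproterenol hearts all lay above vehicle hearts for 2, 4, 6 and 3 of the 7 genes at 1, 3, 24 and 72 h, against 6.49%, 8.5%, 10.6% and 8.63% of all probe sets. They all lay below for 0 genes at 1 and 3 h and for 1 gene, Tuba8, at 24 and 72 h, against 7.67%, 9%, 11.2% and 8.15% of all probe sets. The difference itself was called as changed for 0 of the 7 genes between 1 and 3 h, for 1 (Tubb5) between 3 and 24 h and for 1 (Tuba4a) between 24 and 72 h, where 0.58%, 6.79% and 2.12% of all probe sets were. The median difference over the 7 genes was 0.29, 0.57, 1.22 and 1.04, and over all probe sets tested it was -0.03, -0.05, -0.02 and -0.04. Tubb3, among the genes called higher at 3, 24 and 72 h, passed the intensity filter only through isoproterenol hearts. Since the genes were chosen on this comparison, nothing is read from these counts. The call of Tubb6 at 1 h was lost when any 1 of 6 of the 8 arrays of that time was left out: each of the 3 vehicle hearts and isoproterenol replicates 1, 3 and 4. The size of its difference lay between 1.40 and 1.58 over the 8 fits.

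**Figure D2:**
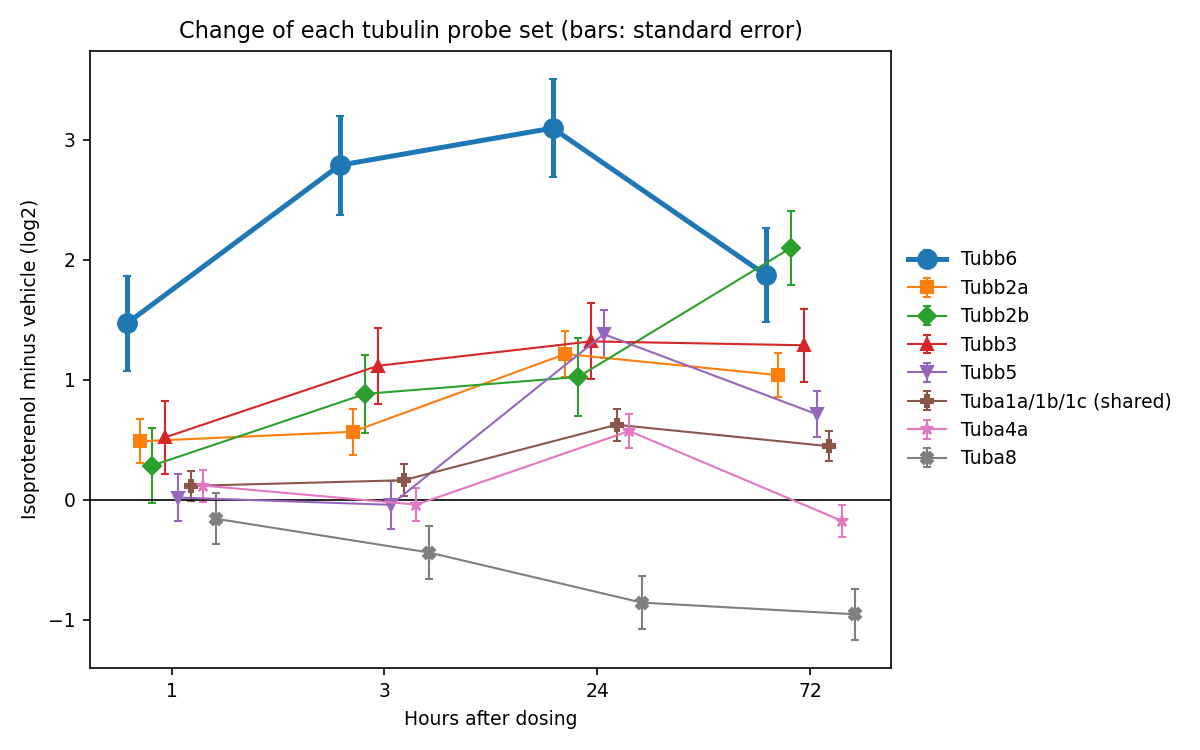
Difference in normalized log2(intensity + 16), isoproterenol minus vehicle (vertical axis), by hours after dosing for the brightest probe set of each tubulin gene and the shared Tuba1 probe set, with bars of 1 standard error. Tubb6 is the topmost line at 1, 3 and 24 h, Tubb2b reaches 2.10 at 72 h, and Tuba8 runs below 0.

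Tubb6 was then set against the other isoforms within each array. The measure was its log2 level minus the mean of the 6 other genes with a probe set of their own, dim Tubb3 included. This measure cancels whatever raises or lowers all tubulin probe sets of an array alike. It averaged -0.74 ± 0.14 in isoproterenol hearts and -2.00 ± 0.22 in vehicle hearts at 1 h, and 0.48 ± 0.53 in isoproterenol hearts and -1.97 ± 0.26 in vehicle hearts at 3 h (SD, n as above). At 24 h it averaged 0.27 ± 0.88 in isoproterenol hearts and -2.05 ± 0.27 in vehicle hearts, and at 72 h -1.10 ± 0.67 in isoproterenol hearts and -2.31 ± 0.14 in vehicle hearts. The groups did not overlap at any of the 4 times. The difference between the groups was 1.26, 2.45, 2.32 and 1.21 at 1, 3, 24 and 72 h, while the mean difference of the 6 other isoforms was 0.21, 0.34, 0.78 and 0.67. The gap was thus narrower at 72 h than at 24 h, with Tubb6 less high and the mean of the others nearly as high. The single differences behind that mean ran from -0.86 (Tuba8) to 1.38 (Tubb5) at 24 h. At 72 h they ran from -0.95 (Tuba8) to 2.10 (Tubb2b, above Tubb6). Tubb6 was chosen for its difference, so this comparison carries no test.

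**Figure D3:**
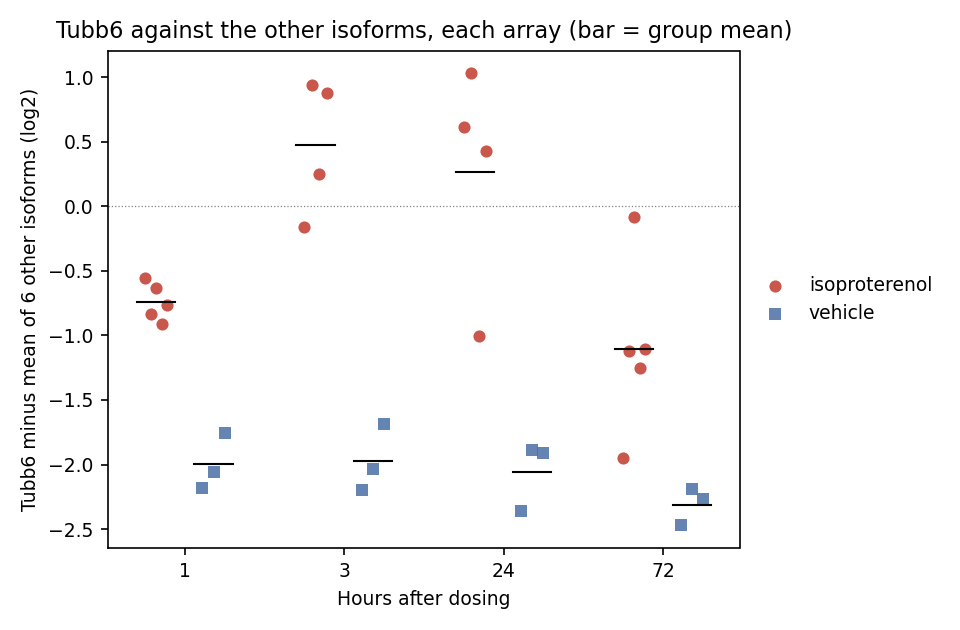
Log2 level of Tubb6 minus the mean log2 level of the 6 other isoforms in the same array (vertical axis), by hours after dosing, with 1 point per array for isoproterenol (circles) and vehicle (squares) and a bar at each group mean. Vehicle hearts lie between -2.47 and -1.68, and each isoproterenol heart lies above the vehicle hearts of its own time.

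The vehicle hearts of the 4 times were also set against each other. Their values are part of the differences on which the genes were chosen, so this is a description too. None of the 7 genes was called among the 4 vehicle times by limma's moderated F test with Benjamini-Hochberg adjustment, and none had an unadjusted p below 0.05. Of all probe sets, 0.0988% were called. Over the 12 vehicle hearts Tubb6 ran from 6.28 to 7.25, Tubb2a from 9.20 to 10.02 and Tubb2b from 5.30 to 6.66. Tubb5 was the tightest of the 7, from 9.53 to 9.97, and Tuba8 ran from 10.41 to 11.35.

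Within the isoproterenol groups, 1 heart at each time often had the smallest difference from vehicle, most often at the late times. Differences were read here in the direction of the group's mean difference. A heart on the opposite side of the vehicle mean therefore counts as smallest, however far off it lies. At 24 h replicate 3 had the smallest difference from vehicle in 6 of the 8 probe sets followed (the 7 genes and the shared Tuba1 probe set), and at 72 h replicate 1 had it in 7 of 8. Earlier, replicate 5 at 1 h had it in 5 of 8 and replicate 1 at 3 h in 4 of 8. Leaving out replicate 3 at 24 h put Tubb6 at 3.58, and leaving out replicate 1 at 72 h put it at 2.21. In these same 24 h and 72 h hearts other values stood apart too. The summed intensity of 8 macrophage markers was 1264 in replicate 3 and 2760 to 3684 in the other isoproterenol hearts at 24 h, against 636 to 739 in vehicle hearts. At 72 h it was 974 in replicate 1 and 2441 to 3772 in the other isoproterenol hearts, against 457 to 778 in vehicle hearts. The summed intensity of 8 cycling cell markers was 515 in replicate 3 and 1021 to 1269 in the other isoproterenol hearts at 24 h, against 275 to 339 in vehicle hearts. At 72 h it was 303 in replicate 1 and 631 to 1172 in the other isoproterenol hearts, against 178 to 316 in vehicle hearts. The sum over 7 fibroblast markers at 72 h was 18653 in replicate 1 and 40652 to 46821 in the other isoproterenol hearts, against 12089 to 16184 in vehicle hearts. Replicate 3 at 24 h also had the lowest median intensity of its group, 35.2, with 57.6 to 70.3 in the others, whereas replicate 1 at 72 h, at 49.1, lay within the 22.5 to 55.5 of the others. The log2 level of the 3' beta-actin control above its 5' control, a sign of RNA quality, was the highest of its group in both hearts. It was 1.345 in replicate 3 at 24 h, with 0.885 to 1.087 in the others and 1.457 to 1.919 in vehicle hearts. In replicate 1 at 72 h it was 1.627, with 1.124 to 1.499 in the others and 0.969 to 1.985 in vehicle hearts. The fibroblast sum at 24 h was 16584 in replicate 3, within the 12144 to 18050 of the other isoproterenol hearts, against 12249 to 15892 in vehicle hearts. The endothelial sum was instead the highest of its group in both hearts. It was 3473 in replicate 3 at 24 h (2322 to 2907 in the others, 3910 to 4387 in vehicle hearts). In replicate 1 at 72 h it was 4657 (2451 to 3117 in the others, 3044 to 4905 in vehicle hearts). The skeletal muscle sum was likewise highest in both, and the neutrophil, platelet and nerve sums were lowest, some by small margins. At 72 h the cardiomyocyte sum was highest in replicate 1 too. The part of these cells, of array brightness or of RNA quality in the tubulin values was not tested. In whole heart tissue, more cells of a type and more RNA per cell cannot be told apart.

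The marker lists over all hearts were as follows, with limma's calls. Of all probe sets tested, 1.83%, 6.1%, 7.34% and 9.37% were called higher at 1, 3, 24 and 72 h. The shares called lower were 0.815%, 5.28%, 5.71% and 8.46%. Macrophage markers rose in 1, 2, 6 and 7 of 8 at 1, 3, 24 and 72 h, and none fell. Cycling cell markers rose in 5 of 8 at 24 h and 6 of 8 at 72 h and in none before. Neutrophil markers rose in 2, 4, 1 and 0 of 5 at 1, 3, 24 and 72 h, while Cxcr2 was below the intensity limit on every array. The summed intensity of the neutrophil list at 3 h was 476 to 697 in isoproterenol hearts, against 121 to 248 in vehicle hearts. The part of neutrophils in the tubulin values was not tested. Fibroblast markers rose in 5 of 7 at 72 h, and at each other time at most 1 rose and at most 1 fell. The earlier calls were Pdgfra at 1 h (-1.09 ± 0.20) and Tcf21 at 3 h (0.76 ± 0.21). At 24 h they were Postn (3.68 ± 0.56) and Dcn (-0.68 ± 0.14). Nerve and Schwann cell markers rose in 0, 1, 2 and 1 of 7, with Snap25 below the limit on every array. Of the 7 cardiomyocyte markers, Ryr2 fell at 24 h and no other was called, and their summed intensity at 24 h was 56099 to 62202 in isoproterenol hearts, against 64614 to 66528 in vehicle hearts, so the defining genes of heart muscle were bright throughout. Mural markers fell in 2 of 5 at 3 h and rose in 1 of 5 at 72 h, and endothelial markers fell in 1 of 5 at 3, 24 and 72 h. Of 3 platelet markers 1 rose at 72 h, and of 6 skeletal muscle markers 1 fell at 3 h and 1 at 72 h. None of the 5 lymphocyte markers tested was called, and Cd79b and Ms4a1 were below the limit on every array. As a sign of RNA quality, the log2 level of the 3' beta-actin control exceeded that of its 5' control by 1.06 in isoproterenol hearts and by 1.69 in vehicle hearts at 24 h, and by 1.91 in isoproterenol hearts and by 1.28 in vehicle hearts at 3 h, and its part in the tubulin values was not tested.

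The genes whose level ran most like Tubb6 over the 30 arrays were Timp1, Sec23b, Ccl7, Glrx, Ccl2, Pmepa1, Fst and Rai14. Pearson's r was 0.953 for Timp1, the tissue inhibitor of metalloproteinases, 0.934 for Sec23b, a coat protein of vesicles leaving the endoplasmic reticulum, and 0.926 for the chemokine gene Ccl7. For the other 5 it lay between 0.916 and 0.925. Of 12444 genes compared, 16 had r above 0.9, and the median r was -0.015. Timp1 was higher by 2.58 ± 0.51, 4.26 ± 0.54, 4.24 ± 0.54 and 2.90 ± 0.51 at 1, 3, 24 and 72 h, and Ccl2, which encodes a chemokine for monocytes, by 2.16 ± 0.41, 3.49 ± 0.43, 3.25 ± 0.43 and 1.27 ± 0.41. Among the isoforms, r with Tubb6 was 0.811 for Tubb2a, 0.781 for Tubb3, 0.639 for Tubb5, 0.622 for Tubb2b, 0.429 for Tuba4a and -0.666 for Tuba8, and 0.824 for the shared Tuba1 probe set. Over the 18 isoproterenol arrays alone, r was 0.886 for Timp1, 0.736 for the shared Tuba1 probe set, 0.53 for Tubb5, 0.497 for Tubb3, 0.446 for Tuba4a, 0.425 for Tubb2a, 0.162 for Tubb2b and -0.417 for Tuba8. These points share arrays, brightness and the treatment groups, so the correlations are a description.

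Genes that fold, modify, bind, cut or walk along microtubules were then read from lists of 126 genes outside the 10, of which 99 were tested. At 1 h none was called by limma, and 3 higher and 4 lower had an unadjusted p below 0.05. At 3 h 6 rose and 4 fell, at 24 h 15 rose and 7 fell, and at 72 h 10 rose and 4 fell. Of all probe sets tested, 2.65%, 11.4%, 13% and 17.8% were called in either direction at 1, 3, 24 and 72 h. The median difference over the 99 was 0.01, -0.06, 0.14 and 0.01 at 1, 3, 24 and 72 h. The counts at 24 h were 24 higher and 12 lower without isoproterenol replicate 3, and those at 72 h were 16 higher and 10 lower without isoproterenol replicate 1.

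The tubulin folding list had the most calls at 24 h. Of 23 folding genes, 10 rose and 1 fell at 24 h, 3 rose at 3 h, and none was called at 1 or 72 h. Of all probe sets tested, 7.34% were called higher and 5.71% lower at 24 h, and 6.1% higher at 3 h. The median difference of the list was 0.42 at 24 h and 0.00 at 72 h. Cct2, a subunit of the chaperonin CCT, averaged 10.24 ± 0.37 in isoproterenol hearts and 9.49 ± 0.12 in vehicle hearts at 24 h (SD), a rise of 0.75 ± 0.16 (limma adjusted p = 0.00205). The CCT subunit Cct3 rose by 0.67 ± 0.13 at 24 h (limma adjusted p = 0.00113) and by 0.45 ± 0.13 at 3 h (limma adjusted p = 0.0259). Another subunit, Tcp1, rose by 0.52 ± 0.16 at 3 h (limma adjusted p = 0.0309), and the prefoldin subunit Pfdn1 by 0.64 ± 0.17 at 24 h (limma adjusted p = 0.0119). Tbcel, whose protein takes tubulin dimers apart, was the gene that fell, by 0.87 on the log2 scale (limma adjusted p = 0.00449). Tubb6, Tubb2a, Tubb3, Tubb5, Tuba4a and the shared Tuba1 probe set had their largest difference at 24 h too, and Tubb2b and Tuba8 had theirs at 72 h. Between successive times the difference was called as changed only for Tubb5 (3 to 24 h) and Tuba4a (24 to 72 h). For Tubb3 its change from 24 to 72 h was -0.03 ± 0.44, and these peak times are uncertain. Tubb5 still stood at 0.71 at 72 h. Whether the folding genes and the tubulins are linked was not tested.

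**Figure D4:**
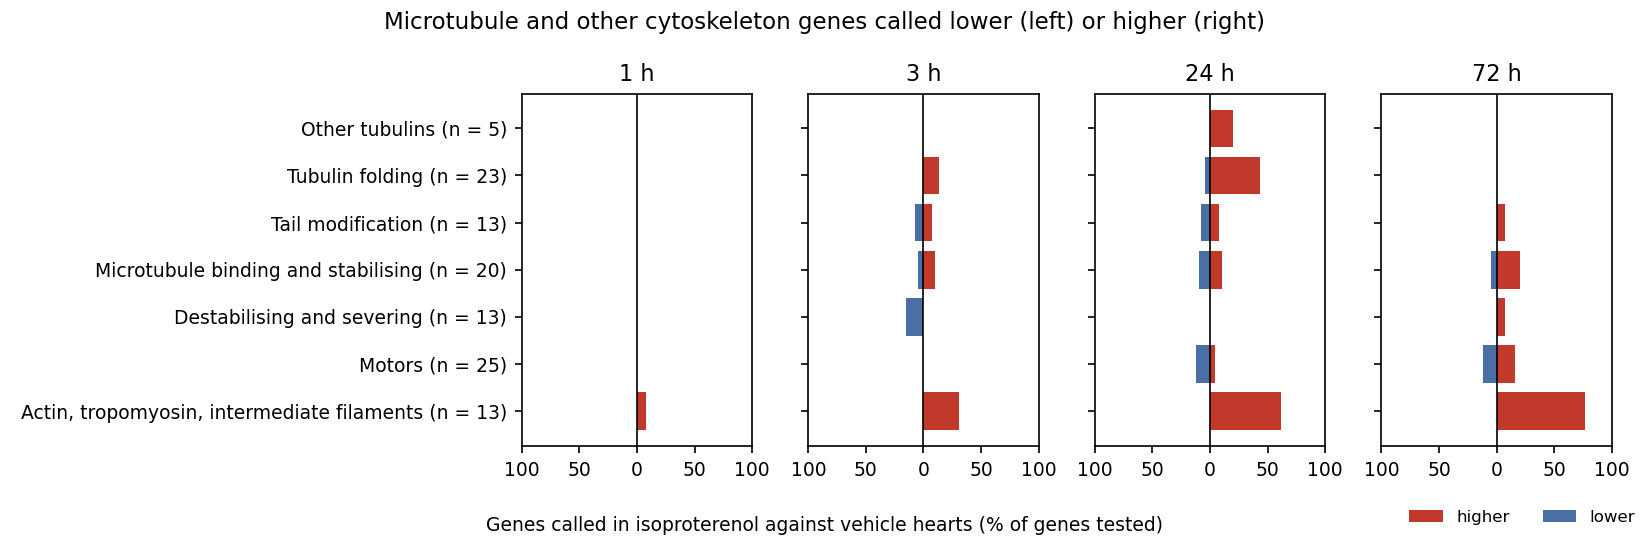
Share of the tested genes of each list (horizontal axis, percent) called lower (left of 0) or higher (right of 0) in isoproterenol against vehicle hearts at 1, 3, 24 and 72 h. At 24 h the folding list has 10 of 23 genes higher, and the list of actins, tropomyosins and intermediate filaments reaches 10 of 13 at 72 h. Of all probe sets, 7.34% were called higher at 24 h and 9.37% at 72 h.

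Of 5 tubulins outside the 10 genes, Tubb4b, a beta-tubulin of most tissues, rose at 24 h, where 7.34% of all probe sets were called higher. It averaged 11.82 ± 0.13 in isoproterenol hearts and 11.21 ± 0.17 in vehicle hearts (SD), a difference of 0.61 ± 0.12 (limma adjusted p = 0.00141), and it was -0.12 ± 0.12 at 72 h (limma adjusted p = 0.558). No other of the 5 was called at any time.

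Among 13 genes for enzymes that modify tubulin tails or acetylate and deacetylate the polymer, 1 rose and 1 fell at 3 h and at 24 h, and 1 rose at 72 h. At 3, 24 and 72 h, 6.1%, 7.34% and 9.37% of all probe sets were called higher and 5.28%, 5.71% and 8.46% lower. Hdac6, which removes acetyl groups from alpha-tubulin, rose by 0.87 ± 0.24 at 3 h and by 1.16 ± 0.24 at 24 h (limma adjusted p = 0.0152 and 0.00157). Sirt2, another deacetylase of tubulin, fell by 0.46 at 3 h (limma adjusted p = 0.0276), and Ttll5, a polyglutamylase, fell by 0.55 at 24 h (limma adjusted p = 0.0481).

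Of 20 genes for proteins that bind and stabilise microtubules, 2 rose and 1 fell at 3 h, 2 rose and 2 fell at 24 h, and 4 rose and 1 fell at 72 h. The shares of all probe sets called higher at these times were 6.1%, 7.34% and 9.37%, and those called lower 5.28%, 5.71% and 8.46%. Mapt, which encodes tau, averaged 8.70 ± 0.23 in isoproterenol hearts and 9.69 ± 0.20 in vehicle hearts at 24 h (SD), a difference of -0.99 ± 0.16 (limma adjusted p = 0.000166). Map4, the main microtubule-associated protein outside neurons, fell by 0.65 at 24 h (limma adjusted p = 0.00172), while Mapre1, which tracks growing plus ends, rose by 0.74 ± 0.16 (limma adjusted p = 0.00272). Its relative Mapre2 fell by 0.64 at 72 h (limma adjusted p = 0.00341). At 3 h Dclk1, a doublecortin-like kinase, rose by 0.91 ± 0.26 and Map1s by 0.72 ± 0.24, and Clasp2, a plus-end protein, fell by 0.45 (limma adjusted p = 0.0187, 0.0445 and 0.0462). Prc1, which bundles the microtubules of the dividing cell's midzone, rose by 1.25 ± 0.27 at 72 h (limma adjusted p = 0.00147), beside the cycling cell markers given above, whose part in it was not tested. Map1b, Dclk1 and Clip2 rose at 72 h too, by 1.40 ± 0.24, 1.22 ± 0.25 and 0.69 ± 0.24. Their groups overlapped (limma adjusted p = 0.000161, 0.000855 and 0.04).

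Of 13 genes that destabilise or sever microtubules, 2 fell at 3 h and 1 rose at 72 h. Among all probe sets, 5.28% were called lower at 3 h and 9.37% higher at 72 h. Stmn1, or stathmin, which holds free dimers, fell by 0.81 at 3 h (limma adjusted p = 0.00298). Its relative Stmn4 fell by 0.88 at 3 h and rose by 0.92 ± 0.27 at 72 h (limma adjusted p = 0.0426 and 0.0186). Of 25 motor genes, 1 rose and 3 fell at 24 h, and 4 rose and 3 fell at 72 h. Among all probe sets, 7.34% were called higher and 5.71% lower at 24 h, and 9.37% and 8.46% at 72 h. The mitotic kinesins Kif11 and Kif20a were higher at 72 h by 0.62 ± 0.18 and 1.26 ± 0.34 (limma adjusted p = 0.0123 and 0.00902), and Kif11 was higher at 24 h by 0.69 ± 0.18 (limma adjusted p = 0.0112). Of the genes for dynactin, the partner complex of dynein, Dctn6 fell by 0.62 at 24 h and by 0.66 at 72 h (limma adjusted p = 0.00386 and 0.00101), Dctn4 fell by 0.61 at 72 h (limma adjusted p = 0.0185), and Dctn2 rose by 0.34 ± 0.12 at 72 h (limma adjusted p = 0.0411). The neuronal kinesin gene Kif5a fell by 0.71 at 24 h (limma adjusted p = 0.0322), and Kif1c, another kinesin gene, fell by 1.24 (limma adjusted p = 0.014). At 72 h the motor genes Kif23 and Dync1li1 had differences of 1.37 ± 0.34 and -0.75 ± 0.21 (limma adjusted p = 0.00502 and 0.0143). For Dctn4, Kif1c, Kif23 and Dync1li1 the groups overlapped.

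Beside the microtubule lists stood 13 genes of actins, tropomyosins and intermediate filaments, of which 1, 4, 8 and 10 rose at 1, 3, 24 and 72 h and none fell. Among all probe sets, 1.83%, 6.1%, 7.34% and 9.37% were called higher at these times. Macrophage markers rose in 6 of 8 at 24 h and 7 of 8 at 72 h and fibroblast markers in 5 of 7 at 72 h. The part of these cells in the values of this list was not tested. Actg1, the gamma-actin of non-muscle cells, rose at 1 h by 0.84 ± 0.16 (limma adjusted p = 0.000837), the time at which Tubb6 was the 1 tubulin called. Synm, which encodes the intermediate filament protein synemin, rose by 1.56 ± 0.33 at 3 h (limma adjusted p = 0.00154). Tpm2, a tropomyosin of smooth and slow muscle, averaged 9.43 ± 1.02 in isoproterenol hearts and 7.12 ± 0.17 in vehicle hearts at 72 h (SD), a difference of 2.31 ± 0.33 (limma adjusted p = 1.52e-05). Vim, the intermediate filament gene vimentin of mesenchymal cells, rose by 1.08 ± 0.23 at 24 h and by 1.38 ± 0.22 at 72 h (limma adjusted p = 0.00179 and 5.14e-05), and Lmna, for lamins A and C, by 1.16 ± 0.23 at 24 h (limma adjusted p = 0.000859).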

How the data were processed

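Per the labels' protocols, RNA was prepared from heart tissue by a Qiagen spin-column method, labelled with biotin as cRNA and hybridised to 1-colour Affymetrix RAT230_2 arrays. The authors deposited 1 linear intensity per probe set and array, and how probes were summarised, and whether values were scaled, is not given in the labels. Probe sets were named through the platform annotation, with symbols updated by gene number: of 31099, 20826 had 1 gene, 436 had several, 9780 were not listed and 57 were controls, left out. The deposited intensity was taken as log2(intensity + 16), a scale on which dim probe sets show less change than they had, and quantile normalized, which removes a change shared by most transcripts. Kept were 24292 probe sets with an intensity of at least 23, the 40th percentile of all values, on 3 arrays or more. limma 3.58.1 in R 4.3.3 fitted 8 group means with an intensity trend (22 residual degrees of freedom), with two-sided tests and Benjamini-Hochberg adjustment over all probe sets tested. The procedure was tested on simulated data. Groups held 3 to 5 arrays, and that small number limits the precision. A gene was read from its brightest probe set.

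The genes and lists were chosen with earlier results of these data known. Named were all 10 tubulin genes, up to 4 genes of each list and time with the largest called difference and groups that did not overlap, and the 8 genes most correlated with Tubb6. Genes outside this rule (Dctn4, Kif1c, Kif23, Dync1li1, Map1b, Clip2, Dclk1 at 72 h and the markers) were named after their values were seen. Not every gene the rule allows is printed. Alternatives covered the pseudocount, filter, normalization, variance model, replicate number as a block, arrays fitted, probe set rule and each array left out.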

Additional observations from a re-analysis of the deposited data

Results flagged for a closer look

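In 40 pairs of a tubulin probe set and an isoproterenol group, the highest and lowest heart were set against the rest of the group, and 4 stood far from the others, where chance flags about 1 in 20. Tubb2b at 1 h was highest in isoproterenol replicate 5, at 6.88. Both Tubb5 probe sets were lowest in isoproterenol replicate 3 at 24 h, at 10.48 on 1387892_at and 9.88 on 1370290_at. That heart also had the lowest median intensity and macrophage marker sum of its group, and the largest 3' over 5' beta-actin difference. Tuba4a at 3 h was highest in isoproterenol replicate 3, at 12.04.

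In 3 cases the difference between isoproterenol and vehicle hearts itself was called by limma as unequal at successive times. For Tubb5 it was larger at 24 h than at 3 h by 1.42 on 1387892_at and by 1.09 on 1370290_at in isoproterenol against vehicle hearts, in a comparison where 6.79% of all probe sets were called. For Tuba4a the difference at 72 h minus that at 24 h was -0.75, in a comparison where 2.12% of all probe sets were called. These genes were chosen with the differences known, so these values are a description.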

How the results depend on the processing

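Every tubulin difference that was called kept its sign under each alternative run, and those that lost the call are named here. Tubb6 minus the other isoforms at 1 h was 1.03 with a pseudocount of 64, against 1.26. At 1 h, 0 genes were called higher with that pseudocount, without normalization, with median centring, without the intensity trend, with robust variance and with the replicate block, since Tubb6 was lost, and 2 were called with only the arrays compared, which added Tubb2a. Tubb2a at 3 h, not called as reported, was called with median centring, with only the arrays compared, with the mean of all probe sets of a gene and without vehicle replicate 3. Without normalization 1 gene was called higher at 3 h (Tubb3 was lost) and 0 were called lower at 24 and 72 h (Tuba8 was lost), and the shared Tuba1 probe set at 72 h was lost too. In that setting Tuba4a at 72 h, which was not called, was 0.19 in place of -0.18, and 3078 probe sets were called higher and 17 lower at 24 h. The microtubule lists without normalization had 0 higher and 0 lower at 3 h, 0 lower at 24 h and 0 lower at 72 h. With median centring they had 1, 4 and 1 lower at 3, 24 and 72 h. Without the intensity trend they had 3 higher at 3 h. With only the arrays compared they had 3 higher at 1 h, 1 higher and 1 lower at 3 h, 9 higher and 4 lower at 24 h, and 6 higher and 2 lower at 72 h, and Tubb3 at 3 h and Tubb5 and the shared Tuba1 probe set at 72 h were lost. With the mean of all probe sets of a gene they had 7 lower at 72 h, and Tubb3 was lost at 3 and 24 h. Leaving out each array in turn, the tubulin genes called higher ran from 0 to 1 at 1 h and from 1 to 3 at 3 h, and those called lower from 0 to 1 at 24 h, where Tuba8 was lost without vehicle replicate 1 or isoproterenol replicate 2. In such fits Tubb3 was lost at 3 h without vehicle replicate 1 or 2 or isoproterenol replicate 2, and at 72 h without vehicle replicate 3. Tubb2b at 24 h was lost in 5 of 7 fits, Tuba4a at 24 h without vehicle replicate 1, and the shared Tuba1 probe set at 72 h without vehicle replicate 3 or isoproterenol replicate 3. For the microtubule lists the counts ran from 2 to 6 higher and 1 to 3 lower at 3 h, 10 to 24 higher and 4 to 12 lower at 24 h, and 6 to 16 higher and 2 to 10 lower at 72 h. Same-numbered isoproterenol and vehicle arrays did not deviate together (12 pairs, r from -0.074 to 0.125, 2 above 0.1), so the numbers were not taken as pairing. With the replicate block 0 genes were called higher at 1 h, 2 at 3 h, 5 at 24 h (Tubb2b was lost) and 5 at 72 h. The cause of these shifts was not tested. The filter on normalized values and the shared Tuba1 probe set added to the other isoforms were alternatives chosen after seeing the data, and neither changed a count by over 1.5 times.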
